A study of Mus musculus with 6 samples.

Results

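The genes described here encode 9 receptors that couple to inhibitory G proteins of the Gi/o class and damp sensory neurons: the cannabinoid receptor Cnr1, the alpha-2 adrenergic receptors Adra2a and Adra2c, the GABA type B subunits Gabbr1 and Gabbr2, the somatostatin receptor Sstr2, the neuropeptide Y receptors Npy1r and Npy2r, and the galanin receptor Galr1. They were chosen by name and known function and not by a rule on measured values, though with earlier results of these data known. All 9 were found among the 36793 genes of the deposited table. The 6 libraries came from lumbar dorsal root ganglia of mice, 3 labelled wild type (mice 1 to 3) and 3 labelled NMDA-R knockout (mice 4 to 6). By the series title the knockout is a deletion in Schwann cells, the glia that ensheathe peripheral axons, and removes the gene of GluN1, the subunit that every NMDA receptor needs. The labels name no driver line, strain, sex or age, and they do not say whether ganglia were pooled.

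Receptors of this class lower adenylyl cyclase activity through the alpha subunit of their G protein. The released beta and gamma subunits open inward-rectifying potassium channels of the GIRK type and inhibit the N- and P/Q-type calcium channels of presynaptic terminals. In sensory neurons this reduces firing and the release of transmitter in the spinal cord, which is why agonists at several of these receptors relieve pain. Their natural ligands are lipids (endocannabinoids), small transmitters (noradrenaline, GABA) and peptides (somatostatin, neuropeptide Y, galanin).

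Each library held between 28526704 and 36249163 expected counts, the read numbers that RSEM assigns to genes. Knockout libraries 5 and 6 differed by no more than sampling noise, with 0 of 10258 genes differing by chi-square at a false discovery rate (FDR) of 0.05 and a mean chi-square of 1.15 per gene. The other 14 pairs of libraries had 13.3 to 104 per gene and 3451 to 7252 differing genes. The sum of libraries 5 and 6 therefore entered the test as a single knockout sample beside library 4, against 3 wild-type samples. The labels also call the cell type Schwann cells, but the libraries hold the whole ganglion: 10 genes used by all neurons summed to between 14300 and 18600 CPM, the TMM-normalised share of a library's counts, and 8 genes of myelinating Schwann cells to between 3990 and 5380 CPM. In such bulk RNA, fewer cells of a type and less RNA per cell cannot be told apart.

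No change between the genotypes was called for any of the 9 receptor genes. In the edgeR quasi-likelihood test all 9 were measured and 0 passed at an FDR of 0.05, where 0.0952% of the 16809 genes tested passed. Without adjustment, 0 of the 9 had a p under 0.05 in this fit, against 9.14% of all genes. The log2 fold changes, knockout against wild type, lay between -0.27 for Npy2r and 0.27 for Cnr1, with 4 positive and 5 negative and a median of -0.01 (0.00 over all genes tested). Every 95% interval stayed within a 2-fold change either way, and the widest, that of Gabbr2, reached 1.8-fold higher. A missed threshold does not show that the levels were alike, so each receptor is given below with its interval.

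**Figure D1:**
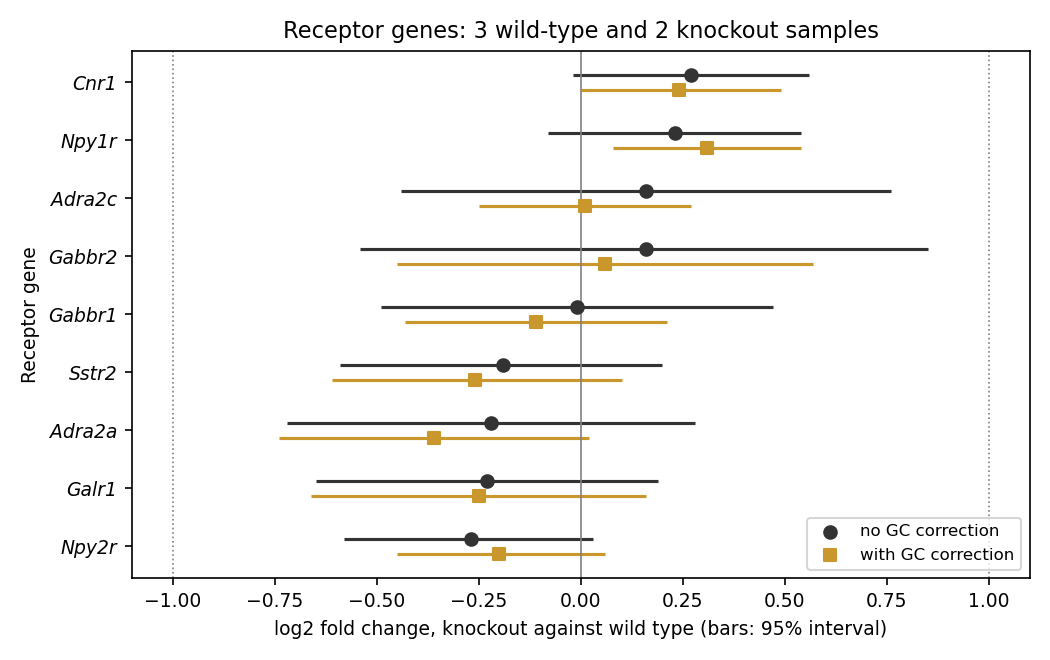
The log2 fold change of each receptor gene, knockout against wild type, with its 95% interval as a horizontal bar, from the edgeR fit of 3 wild-type and 2 knockout samples, without and with a correction for GC content. Dotted vertical lines mark a 2-fold change. Of the 18 intervals only that of Npy1r with GC correction, 0.08 to 0.54, lies wholly on 1 side of zero.

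The receptors spanned a wide range of levels. In TPM, the deposited transcript measure that is scaled by gene length and so can be set side by side between genes, the order by mean was Gabbr1, Gabbr2, Npy1r, Cnr1, Npy2r, Adra2c, Sstr2, Galr1 and Adra2a. Gabbr1 had 215, 277 and 306 TPM as the lowest, median and highest of the 6 libraries, above 96.2% of the genes tested. Adra2a had 1.59, 1.98 and 2.46 TPM, above 17.7% of them. Most neighbours in this order were separated in all 6 libraries. The exceptions were Cnr1 and Npy2r, of which Cnr1 was the higher in 3 of 6 libraries, with a mean log2 ratio of 0.09 ± 0.33 (SD, n = 5). The ranges of Npy1r and Cnr1, and of Galr1 and Adra2a, overlapped across libraries, although the first of each pair was higher within each of the 6.

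**Figure D2:**
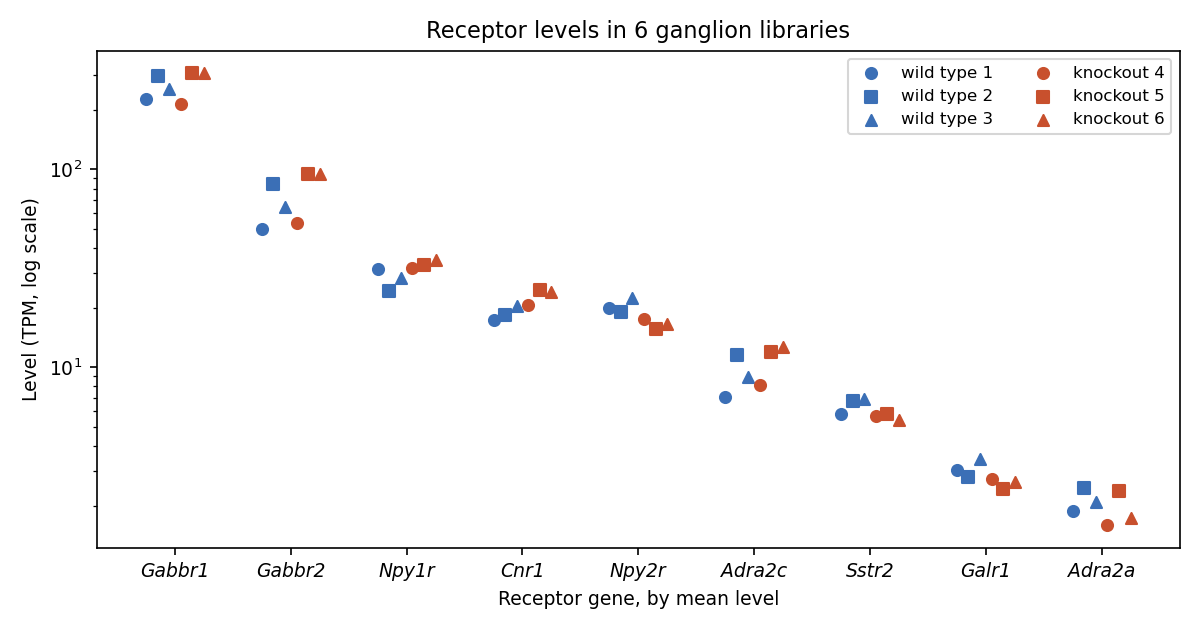
The level of each receptor gene in TPM, on a log scale, with 1 point per library, blue for wild type and red for knockout, ordered by mean level. Gabbr1 lies above 200 TPM in every library, while Galr1 and Adra2a lie below 4 TPM.

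The neuropeptide Y receptors were the pair in which the genotypes lay furthest apart. Npy1r encodes the Y1 receptor, found on cell bodies of peptide-containing sensory neurons (chromosome 8, 66697192 to 66706792, GRCm38, plus strand). Its level was 42.7, 33.5 and 38.0 CPM across wild-type mice, against 44.3, 43.8 and 46.0 CPM across knockout mice. All knockout libraries lay above all wild-type libraries, the nearest being knockout 5 and wild type 1. These 2 libraries differed by less than the counting error, which was 3.06% at the lowest count of 1066. The sample means were 38.3 ± 4.49 CPM (SD, n = 3) and 45 ± 0.508 CPM (SD, n = 2), and the log2 fold change was 0.23 ± 0.13 (SE), with an interval of -0.08 to 0.54 (edgeR, Benjamini-Hochberg adjusted p = 0.618).

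Npy2r encodes the Y2 receptor, which acts on presynaptic terminals (chromosome 3, 82538383 to 82548084, minus strand). It was at 29.6, 28.1 and 32.7 CPM across wild-type mice, against 26.6, 22.5 and 23.9 CPM across knockout mice. Here all knockout libraries lay below all wild-type libraries. The means were 30.3 ± 2.36 CPM (SD, n = 3) and 25.1 ± 2.39 CPM (SD, n = 2), and the log2 fold change was -0.27 ± 0.13 (SE), with an interval of -0.58 to 0.03 (edgeR adjusted p = 0.574).

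Npy1r and Npy2r thus lay on opposite sides of zero, and their ratio needs no scaling between libraries. The ratio of Npy1r to Npy2r in TPM was 1.57, 1.28 and 1.26 in wild type and 1.81, 2.10 and 2.10 in knockout libraries 4, 5 and 6, so the groups did not overlap. On the log2 scale it was 0.45 ± 0.17 (SD, n = 3) in wild type and 0.96 ± 0.15 (SD, n = 2) in knockout, a difference of 0.51. An exact two-sided permutation test over the samples gave p = 0.1, the smallest that the 10 arrangements of 3 and 2 samples allow, and 0.15 after adjustment over the 3 ratios tested. The ratios were tested after the values had been seen. The transcripts of these genes have like GC content, 43.25% for Npy1r and 42.4% for Npy2r. The TPM ratio itself was not recomputed under other processing. In 14 alternative fits of the counts, the log2 fold change of Npy1r minus that of Npy2r ranged from 0.4 to 0.61.

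**Figure D3:**
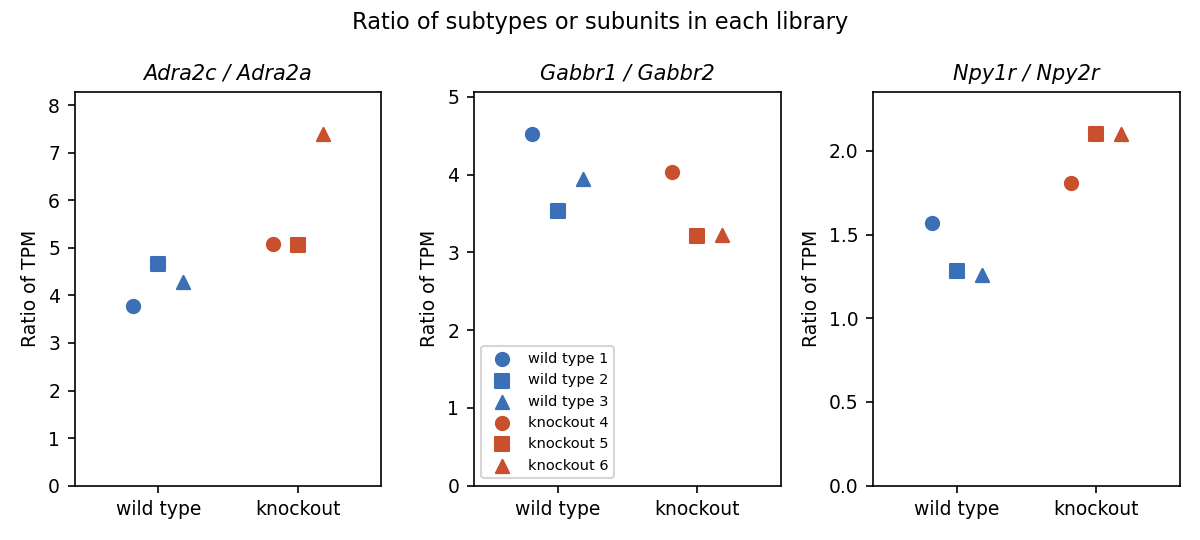
The ratio of TPM between the 2 adrenergic receptors, the 2 GABA type B subunits and the 2 neuropeptide Y receptors in each library, on linear axes that start at 0, with blue points for wild type and red for knockout. The ratio of Npy1r to Npy2r is at most 1.57 in wild type and at least 1.81 in knockout.

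Their peptide moved far more than the receptors. Npy, which encodes neuropeptide Y, had 12, 3 and 2 counts across wild-type mice, against 375, 280 and 213 across knockout mice, and rose 55.1-fold from 0.175 CPM to 10.2 CPM (edgeR adjusted p = 0.0251). The log2 fold change of Npy was 5.78, and 6.9 without wild type 1, the wild-type library with the most Npy counts. The call was lost without wild type 2 (log2 fold change 5.48, adjusted p = 0.0952), without wild type 3 (5.43, 0.138), without knockout 4 (5.35, 0.0768) and in limma-voom (5.91, 0.0732), where the change was about as large. The third receptor of this family in the test, Npy5r, had 16, 24 and 23 counts across wild-type mice, against 20, 19 and 20 across knockout mice, a log2 fold change of -0.10.

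Galr1 encodes an inhibitory galanin receptor on chromosome 18. It was at 3.93, 3.65 and 4.37 CPM across wild-type mice, against 3.61, 3.07 and 3.31 CPM across knockout mice. The groups did not overlap, but knockout 4 and wild type 2 differed by less than the counting error, which was 9.71% at the lowest count of 106. The means were 4.01 ± 0.369 CPM (SD, n = 3) and 3.43 ± 0.293 CPM (SD, n = 2), and the log2 fold change was -0.23 ± 0.18 (SE), with an interval of -0.65 to 0.19 (edgeR adjusted p = 0.704). Gal, the gene of its ligand galanin, was at 11.3, 11.6 and 12.5 CPM across wild-type mice, against 44.7, 43.8 and 46.7 CPM across knockout mice, and rose 3.82-fold (edgeR adjusted p = 0.00722). The related receptor Galr2 was at 0.569, 0.66 and 0.752 CPM across wild-type mice, against 0.646, 1.46 and 1.66 CPM across knockout mice. Its log2 fold change of 0.79 ± 0.42 (SE) did not pass (edgeR adjusted p = 0.607), and knockout 4 lay within the wild-type range.

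Sstr2 encodes a somatostatin receptor (chromosome 11, 113619342 to 113626028, plus strand). Its level was 5.04, 6.19 and 6.29 CPM across wild-type mice, against 5.21, 5.08 and 4.91 CPM across knockout mice, and the groups overlapped through wild type 1. The log2 fold change was -0.19 with an interval of -0.59 to 0.20 (edgeR adjusted p = 0.726). Sstr2 overlaps Slc39a11 on the opposite strand, a zinc transporter gene with a mean of 533 counts, and the strand setting of the counting is not given in the sources used here, so reads of the 2 genes could be mixed. Sst, the gene of its ligand, was at 1.62, 2.36 and 4.2 CPM across wild-type mice, against 1.6, 2.27 and 1.94 CPM across knockout mice, with a log2 fold change of -0.53 that did not pass (edgeR adjusted p = 0.707).

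**Figure D4:**
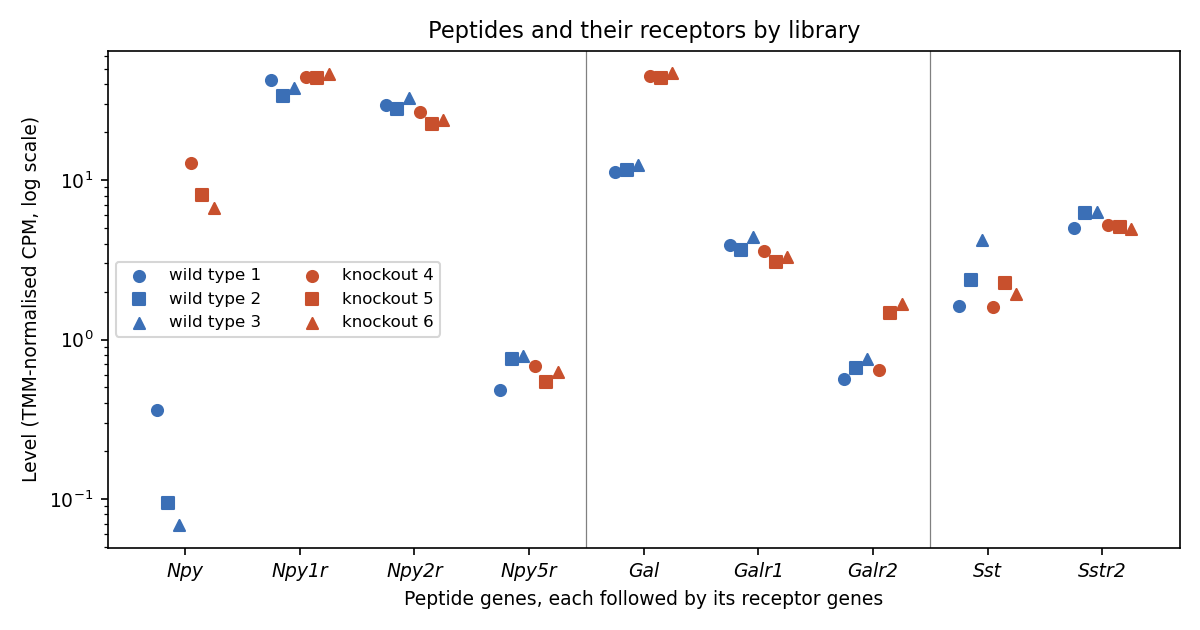
The level in TMM-normalised CPM, on a log scale, of the peptide genes Npy, Gal and Sst and of receptor genes for each, with 1 point per library, blue for wild type and red for knockout. CPM are not scaled by gene length, so heights compare libraries within a gene. Npy and Gal separate the genotypes widely, while Npy1r, Npy2r and Galr1 separate them narrowly.

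Cnr1 encodes the CB1 receptor, the main cannabinoid receptor of neurons (chromosome 4, 33924593 to 33948831, plus strand). It was at 45.6, 49.1 and 53.8 CPM across wild-type mice, against 56.1, 63.3 and 61.9 CPM across knockout mice. Every knockout library was above every wild-type library, with wild type 3 and knockout 4 closest. The means were 49.8 ± 4.24 CPM (SD, n = 3) and 59.9 ± 4.75 CPM (SD, n = 2). The log2 fold change was 0.27 ± 0.12 (SE), with an interval of -0.02 to 0.56 (edgeR adjusted p = 0.572). Its unadjusted edgeR p of 0.0641 was the smallest among the receptors. With the 6 libraries counted separately, where the near-identical pair counts as different animals, Cnr1 and Npy2r had unadjusted p of 0.0164 and 0.0196, against 18.9% of all genes under 0.05, and neither passed after adjustment (edgeR adjusted p = 0.188 and 0.198).

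The non-overlap of Cnr1, Npy1r, Npy2r and Galr1 in 6 libraries is to be read against all genes, of which 24.2% had groups that did not overlap, 10.1% higher and 14.1% lower in the knockout. For the receptors the count was 2 higher and 2 lower of 9.

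For the members with the smallest p in each direction, Cnr1 and Npy2r, the 250 bases before the RefSeq start are shown, to let the promoters of a receptor with a higher and one with a lower mean in the knockout be compared (build GRCm38.p6). Both windows lie before the GENCODE start of the gene. Capitals mark GC boxes, GGGCGG on either strand, the only one of the 4 motifs searched that occurs in them.
Cnr1, chr4:33924014-33924263, plus strand: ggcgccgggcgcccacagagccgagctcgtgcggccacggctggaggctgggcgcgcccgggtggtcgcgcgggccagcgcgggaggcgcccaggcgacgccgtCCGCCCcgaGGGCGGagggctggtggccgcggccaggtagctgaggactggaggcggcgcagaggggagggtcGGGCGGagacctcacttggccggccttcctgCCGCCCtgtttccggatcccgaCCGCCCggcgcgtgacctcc
Npy2r, chr3:82548086-82548335, minus strand: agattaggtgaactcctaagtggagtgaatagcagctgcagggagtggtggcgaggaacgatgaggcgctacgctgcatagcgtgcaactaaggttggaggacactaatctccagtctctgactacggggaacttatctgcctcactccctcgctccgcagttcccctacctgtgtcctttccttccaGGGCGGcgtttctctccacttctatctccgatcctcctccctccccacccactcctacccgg

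RefSeq lists 3 starts for Cnr1, and the window shown is the one that lies wholly before the GENCODE start. The bases after its start were not found in a GENCODE transcript of the gene, while those of the other 2 starts were. The shown Cnr1 window has 79.2% GC, 36 CpG dinucleotides and 5 GC boxes, and the Npy2r window 56.8% GC, 12 CpG and 1 GC box. The other 2 Cnr1 windows have 68.8% and 49.2% GC, 28 and 5 CpG and 0 GC boxes each, so the contrast with Npy2r depends on the start. The median of all 32851 such windows was 52.4% GC and 6 CpG, and 32.7% of them held a GC box. The other motifs were the cyclic AMP response element TGACGTCA, the AP-1 site TGANTCA and the TATA box TATAAA, found on either strand in 1.55%, 6.75% and 12.4% of all windows. Over the 10 windows listed for 8 of the receptor genes, the response element occurred once, in Sstr2, the AP-1 letters once, in Npy1r, and the TATA letters once, in Adra2a. No one of these motifs contains another.

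The GABA type B receptor works only as a dimer, in which the Gabbr1 subunit binds GABA and the Gabbr2 subunit couples to the G protein. Gabbr1 (chromosome 17, 37045966 to 37075067, plus strand) was at 392, 543 and 438 CPM across wild-type mice, against 377, 529 and 528 CPM across knockout mice. Its means were 461 ± 79.4 CPM (SD, n = 3) and 457 ± 108 CPM (SD, n = 2), with a log2 fold change of -0.01 and an interval of -0.49 to 0.47 (edgeR adjusted p = 0.988). The sign turned under some settings, to 0.06 with the 6 libraries separate. Gabbr2 (chromosome 4, 46662305 to 46991873, minus strand) was at 131, 223 and 168 CPM across wild-type mice, against 144, 244 and 243 CPM across knockout mice, with a log2 fold change of 0.16 and an interval of -0.54 to 0.85 (edgeR adjusted p = 0.875). In both genes wild type 2 and knockout 5 and 6 were high and wild type 1 and knockout 4 low, so the groups overlapped. Gabbr1 exceeded Gabbr2 in TPM by 4.52-, 3.53- and 3.94-fold in wild type and by 4.03-, 3.21- and 3.22-fold in knockout (exact permutation p = 0.5). The mean transcript length that RSEM reports for Gabbr1, which has 11 transcripts, ran from 3759 to 3957 bases across libraries.

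Alpha-2 adrenergic receptors bind noradrenaline. Adra2c (chromosome 5, 35278319 to 35281763, plus strand) was at 10.2, 16.8 and 12.7 CPM across wild-type mice, against 12.0, 16.9 and 18 CPM across knockout mice, with a log2 fold change of 0.16 and an interval of -0.44 to 0.76 (edgeR adjusted p = 0.851). Adra2a (chromosome 19, 54044151 to 54048982, plus strand) was at 3.24, 4.31 and 3.55 CPM across wild-type mice, against 2.82, 3.99 and 2.91 CPM across knockout mice, with a log2 fold change of -0.22 and an interval of -0.72 to 0.28 (edgeR adjusted p = 0.753). Both genes overlapped between the groups. The ratio of Adra2c to Adra2a in TPM was 3.78, 4.67 and 4.28 in wild type and 5.09, 5.06 and 7.39 in knockout libraries 4, 5 and 6, without overlap (exact permutation p = 0.1, adjusted 0.15). Libraries 5 and 6 differed in it although they agree within sampling noise over all genes, and Adra2a had only 83 to 139 counts per library.

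The libraries differed in how counts varied with GC content. Over 16681 genes with known GC content, log2 CPM rose with GC in wild type 2, knockout 5 and knockout 6, by 0.114, 0.14 and 0.143 per 10 percentage points, and fell in wild type 1, wild type 3 and knockout 4, by -0.214, -0.114 and -0.069. Adra2c, with 65.49% GC, Gabbr1 with 55.58% and Gabbr2 with 55.51% were each highest in wild type 2, knockout 5 and knockout 6. Adra2a, with 58.57% GC, was not: its 2.91 CPM in knockout 6 lay below wild type 1 and wild type 3. The part of the GC trend in the receptor levels was not tested. The signs of Adra2c, Gabbr1 and Gabbr2 differed with the knockout sample kept. Without knockout 5 and 6 their log2 fold changes were -0.14, -0.28 and -0.28, and without knockout 4 they were 0.4, 0.21 and 0.49. That of Gabbr1 also turned without wild type 2, to 0.13, and with the 6 libraries separate, to 0.06. After correction for the trend the log2 fold changes of Adra2c, Gabbr1 and Gabbr2 were 0.01, -0.11 and 0.06, and the standard error of Adra2c fell from 0.25 to 0.11. The log2 fold change of Adra2a moved from -0.22 to -0.36 (edgeR adjusted p = 0.452). Npy1r moved from 0.23 to 0.31 with an unadjusted p of 0.0161, against 11.7% of all genes under 0.05 in that fit, and did not pass after adjustment (edgeR adjusted p = 0.32), where 0.149% of genes passed. Cnr1 was at 0.24 and Npy2r at -0.20 with the correction.

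**Figure D5:**
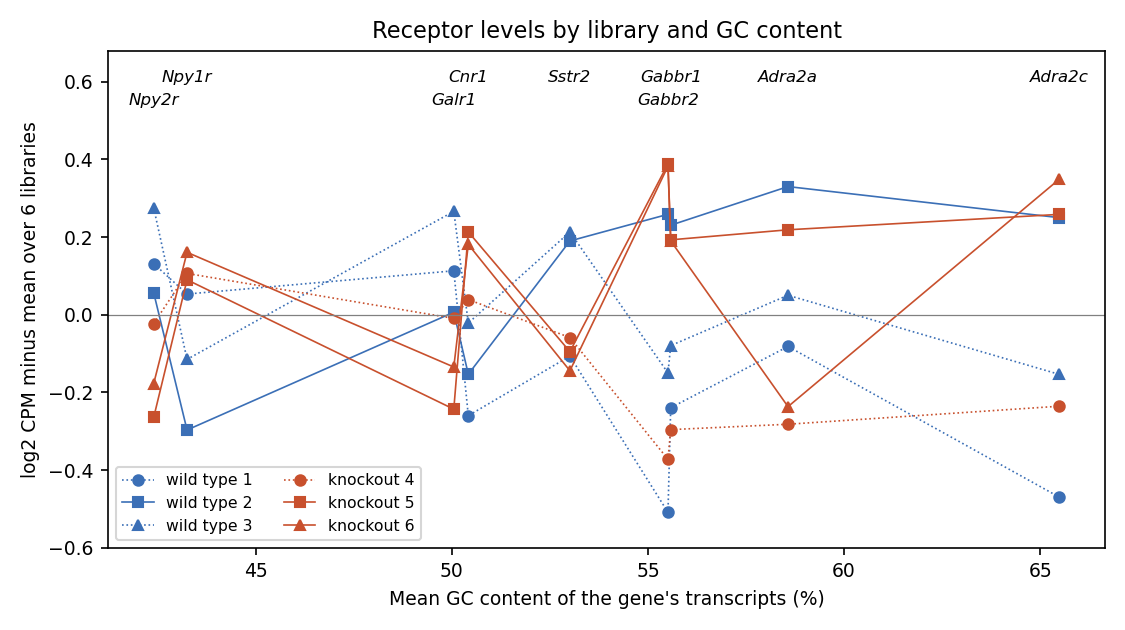
The log2 CPM of each receptor gene in each library, minus the mean over the 6 libraries, against the mean GC content of its transcripts in percent. Solid lines join the values of wild type 2 and knockout 5 and 6, dotted lines those of wild type 1, wild type 3 and knockout 4. The solid lines run above the dotted ones at Gabbr1, Gabbr2 and Adra2c, in both genotypes, but at Adra2a knockout 6 lies below wild type 1 and wild type 3.

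Other subtypes of the same families were mostly low, though Sstr4 had 52 to 112 counts per library and Sstr1 49 to 95, against 83 to 139 for Adra2a. Of 11 listed, 10 were in the table and 7 were tested, with 0 passing. Cnr2, the cannabinoid receptor of immune cells, had 37, 26 and 19 counts across wild-type mice, against 16, 12 and 11 across knockout mice, a log2 fold change of -1 ± 0.39 (SE) (edgeR adjusted p = 0.527). Adra2b was at -0.98 ± 0.51 (SE) on 4 to 23 counts per library (edgeR adjusted p = 0.605). The median of the 7 was -0.10.

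Among the genes that make, carry or remove the small ligands, 1 passed. Th, tyrosine hydroxylase, which starts catecholamine synthesis and is a marker of C-low-threshold mechanoreceptors, was at 94.3, 109 and 89.5 CPM across wild-type mice, against 34.7, 35.5 and 33.7 CPM across knockout mice and fell (log2 fold change -1.49, edgeR adjusted p = 0.0251). It was the 1 of 6 noradrenaline genes tested to pass, and its call was lost without wild type 3 (adjusted p = 0.108), without knockout 4 (0.162) and without knockout 5 and 6 (0.125). Dbh, which converts dopamine to noradrenaline, had 0 to 7 counts per library, below the filter. The monoamine oxidases Maoa and Maob, which break down noradrenaline, were at -0.27 and -0.50 and did not pass. Of the 8 endocannabinoid enzymes 0 passed, with 7 positive and a median of 0.16. Those with the smallest p were Faah, which degrades anandamide, at 0.37, Dagla, which makes 2-arachidonoylglycerol, at 0.54, and Abhd6, a hydrolase of it, at 0.13. Of 6 GABA genes tested 0 passed, among them the transporters Slc6a11 at 0.27 and Slc6a12 at -0.79.

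The shared machinery below the receptors also held 0 genes that passed in any list. The 5 alpha subunits of the Gi/o class had a median of -0.05, with Gnao1, the main alpha subunit of neurons, at -0.18, Gnai3 at -0.14 and Gnaz at 0.17. Of 15 beta and gamma subunits, Gnb4 at -0.47 and Gng2 at -0.31 had unadjusted p of 0.00605 and 0.0221 in edgeR but adjusted p of 0.33 and 0.469, and Gng8 was at 0.30. Gnb4 was at 176, 155 and 158 CPM across wild-type mice, against 125, 110 and 110 CPM across knockout mice, and Gng2 at 483, 440 and 451 against 380, 359 and 360 CPM. Both were lower in every knockout library, as were 14.1% of all genes tested. They were the 2 of 15 with an unadjusted p under 0.05, where 3.99% of all genes were lower at that p.

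The effectors are channels and cyclases. Of the 4 GIRK genes Kcnj5 had at most 3 counts per library and was not tested, and Kcnj3 was at 0.03, Kcnj9 at 0.14 and Kcnj6 at -0.42 on the log2 scale. Kcnj3 was the most even of them, with 34.3, 37.5 and 37.7 CPM across wild-type mice, against 35.6, 37.0 and 40.2 CPM across knockout mice. Among 9 subunits of N- and P/Q-type calcium channels the smallest p belonged to Cacnb4 at -0.29, Cacna1a at 0.33 and Cacna2d2 at -0.20. All 9 adenylyl cyclases were positive, with a median of 0.22, where 8435 of 16809 genes tested were positive. Knockout 4, however, lay within the wild-type range for all of them but Adcy4 and Adcy7. Adcy7, at 10.3, 12.9 and 13 CPM across wild-type mice, against 15.1, 17.6 and 17.7 CPM across knockout mice, had a log2 fold change of 0.45 and an unadjusted p of 0.0245 (edgeR adjusted p = 0.484), and Adcy4 was at 0.55 and Adcy1 at 0.24.

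Regulators that end or limit the signal included the largest log2 fold change among the tested G protein, channel, cyclase, kinase and arrestin genes, that of Rgs20. RGS proteins speed the return of the alpha subunit to its inactive state. Of 16 tested 0 passed, and 7 had an unadjusted p under 0.05, 2 higher and 5 lower, against 5.15% higher and 3.99% lower of all genes. Rgs10 was at 163, 146 and 147 CPM across wild-type mice, against 102, 91.4 and 92.5 CPM across knockout mice, a log2 fold change of -0.65 ± 0.11 (SE) (edgeR adjusted p = 0.221). It passed in DESeq2 (adjusted p = 0.000682), as did 1.52% of all genes, and in edgeR over 6 separate libraries (adjusted p = 0.0263), as did 0.871%. Rgs4 was at 1680, 1410 and 1810 CPM across wild-type mice, against 1200, 1120 and 1120 CPM across knockout mice, a log2 fold change of -0.49 (edgeR adjusted p = 0.372). Rgs20, which acts on Gi-class and Gz alpha subunits, was at 1.74, 1.73 and 1.91 CPM against 3.1, 4.88 and 5.04 CPM, a log2 fold change of 1.18 (edgeR adjusted p = 0.258), and passed in DESeq2 (adjusted p = 0.0199). For each of the 3, which have the smallest p of their list, the groups did not overlap. Among all 16 they did not overlap for 3 higher and 5 lower, against 10.1% higher and 14.1% lower of all genes tested.

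The kinases and arrestins that silence active receptors had 0 of 7 passing, with Grk3 at -0.42, Arrb1 at 0.32 and Grk2 at -0.17. Partner proteins of the receptors had 0 of 5 passing. Among them Kctd8 and Kctd12b, auxiliary subunits of the GABA type B receptor, were at -0.09 and 0.29, and Sgip1, which slows CB1 internalisation, was at 0.28.

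Genes of particular cell types differed between the groups. The summed level of 15 neuron injury genes was 291 to 311 CPM in wild type and 583 to 651 CPM in knockout, and all 15 were higher in every knockout library, where 10.1% of all genes tested were. These lists were chosen with earlier results of these data known, so that count is a description. Non-peptidergic and itch neuron markers, 10 genes, summed to 1060 to 1100 CPM in wild type and 749 to 857 CPM in knockout. Sums were also without overlap for satellite glia (6 genes, 2650 to 2800 and 2930 to 3290 CPM) and endothelium (7 genes, 71.9 to 84.2 and 104 to 105 CPM). They overlapped for all neurons, peptidergic neurons (8 genes, 1970 to 2090 and 1970 to 1990 CPM), large-diameter neurons, Remak Schwann cells, fibroblasts, macrophages and lymphocytes. Some sums rested on 1 abundant gene, as a sum without the most abundant gene of each list, added after the values were seen, showed. The 5 markers of C-low-threshold mechanoreceptors overlapped in sum (662 to 801 and 526 to 712 CPM) through Piezo2, a mechanosensitive channel of many touch neurons. Without it the other 4, Th among them, summed to 206 to 228 CPM in wild type and 107 to 110 CPM in knockout. Each of the 4 was lower in every knockout library, as were 14.1% of all genes tested (median log2 fold change of the 5 genes -0.85). The 8 mural cell markers summed to 279 to 347 and 226 to 229 CPM, but without Rgs5 the other 7 were at 70.9 to 91.0 CPM in wild type and 92.6 to 106 CPM in knockout, the opposite direction. The lymphocyte sums did not overlap without Cd79a (2.99 to 3.81 and 1.46 to 2.69 CPM). No listed marker was at 0 in all libraries. The part of these differences in the values of the receptor genes was not tested.

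Genes with the most like pattern were sought among 13414 named protein-coding genes of at least 1 CPM, by the root mean square difference in centred log2 CPM over the 5 samples. They were Rnf215 and Ascc2 for Cnr1 (0.019 and 0.02), Clrn1 and Aaed1 for Npy1r (0.023 and 0.025), Sema3e and Pyroxd2 for Npy2r (0.024 and 0.027) and Smim26 and Ifit1bl2 for Galr1 (0.021 and 0.025). The receptors' own root mean square deviation from their mean was 0.131 to 0.159 for these 4. With so many genes searched over 5 samples, close matches are a description of the libraries only.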

How the data were processed

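Bulk RNA of 3 wild-type and 3 knockout libraries was analysed. Per the submitters' processing notes, the tools were Trimmomatic 0.38, STAR 2.6.0a and RSEM 1.3.0 and the build GRCm38. Neither the annotation release nor the strand setting is given in the sources used here. In 1 table the authors deposited RSEM expected counts, TPM and other gene length columns, of which 12 per-library columns were not used. The expected counts are not normalized, and 27.1 to 27.9% of those above 0 were not whole within 1e-09. The deposited TPM served for levels, ratios and an alternative test with a pseudocount of 0.5. Of 36793 identifiers 35243 matched a symbol and position in GENCODE vM21.

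Expected counts were rounded, filtered with filterByExpr, scaled by TMM and compared by quasi-likelihood in edgeR 4.0.16 (R 4.3.3), genotype as the only term, two-sided, with Benjamini-Hochberg adjustment over 16809 genes at 0.05. Libraries 5 and 6 were summed. Standard errors are the absolute log2 fold change over the root of F, and 95% intervals use the test's degrees of freedom. DESeq2 1.42.0 and limma 3.58.1 were alternatives, and GC correction used a smooth trend (5 degrees of freedom) per sample. On simulated data, edgeR with and without the filter, edgeR with GC correction, DESeq2 and limma-voom were tried. The limma fit of TPM and the other alternatives were not. The labels do not say how animals were chosen, so p-values of the fits only set a difference between the groups against the spread between these samples. Counting errors cover counting only.

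The receptors and the gene lists were chosen with earlier results of these data known. Named are all 9 receptors, Npy, Gal and Sst, genes of the signalling lists that passed or had the 3 smallest p of their list, and the 2 genes most like a receptor in pattern. A gene that this rule names is not reported here. Npy5r, Sstr1, Sstr4 and the untested Dbh and Kcnj5 were named after their values were seen.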

Additional observations from a re-analysis of the deposited data

How the results depend on the processing

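No paired analysis was possible because no mouse number occurs in both genotypes. The count of 0 changed receptor genes of 9 held in all 15 alternative fits and at an FDR of 0.10, with 0 to 2 of them at an unadjusted p under 0.05. Over all genes 16 passed, against 144 with the 6 libraries separate, 255 with DESeq2, 81 with no filter, 25 with GC correction and 30 at an FDR of 0.10, and 7 to 16 with replicates left out. For these counts the cause was not tested, apart from the looser FDR, which adds genes by construction. Leaving out replicates gave log2 fold changes of 0.18 to 0.35 for Cnr1, -0.39 to -0.08 for Adra2a, -0.27 to -0.14 for Sstr2, 0.15 to 0.34 for Npy1r, -0.37 to -0.18 for Npy2r and -0.31 to -0.14 for Galr1, none of which changed sign. Those of Adra2c (-0.14 to 0.4), Gabbr1 (-0.28 to 0.21) and Gabbr2 (-0.28 to 0.49) did. Gabbr1, at -0.01, was also at 0.06 with the 6 libraries separate, 0.01 with no filter and 0.00 with DESeq2 and its size factors. The sign turned without knockout 5 and 6 for Dagla (-0.09 to 0.97 over the omissions), Slc6a11 (-0.06 to 0.52), Galr2 (-0.03 to 1.24), Sgip1 (-0.01 to 0.52), Gnaz (-0.08 to 0.38), Kcnj9 (-0.37 to 0.47), Kcnj3 (-0.03 to 0.09) and Cacna1a (-0.05 to 0.63), and without wild type 2 or knockout 4 for Kctd8 (-0.19 to 0.00, at -0.16 without wild type 3), Gnao1 (-0.53 to 0.1), Cacna2d2 (-0.47 to 0.02, at -0.25 without wild type 1) and Grk2 (-0.49 to 0.09). Gabbr1 was at -0.09 without wild type 1. The log2 difference in the ratio of Adra2c to Adra2a was 0.39 in TPM. Taken from the count fits as a difference of log2 fold changes, it was 0.25 without knockout 6 and 0.55 without knockout 5. The other 2 ratios, taken in the same way, moved by less than the wild-type SD. The cause was not tested for these. Where knockout 4, or both 5 and 6, were omitted, the lone knockout sample was assumed to vary as the wild-type samples do. Depth limits Adra2a, Galr1 and Sstr2, with 83 to 197 counts per library, and the subtypes Cnr2, Adra2b, Npy5r, Galr2, Sstr1 and Sstr4.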
